A study of Mus musculus with 4 samples.

Results

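Cps1, Ass1, Pck1, G6pc, Tat, Uox and Phkb encode enzymes of urea synthesis, glucose release, glycogen breakdown and the catabolism of amino acids and purines in the liver. They were picked by name as a group of liver enzymes, with earlier results of these data known. Every probe that the array's design assigns to one of these names was used. This gave 7 of 20445 autosomal genes, and 13 of 52385 autosomal probes. Copy number was measured in genomic DNA of 4 mouse samples with comparative genomic hybridisation arrays, on which differently dyed sample and reference DNA bind to each probe in competition. All 4 samples are liver cells labelled TAK1LPC-KO_RIP3-_-, that is, with TAK1 deleted in liver parenchymal cells and with Rip3 deleted, and they were labelled with Cy5. The reference, labelled with Cy3, was 1 pool of DNA from 4 normal liver tissues.

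The sources used here do not give the sex, age or strain of the mice, or what drove the deletion of TAK1. The study has 1 group and no second genotype, so the pool is the only control. Testing each ratio against 0 takes no account of how normal livers vary among themselves. Dyes were not swapped, so a dye effect of a probe remains in its ratio. The sample DNA came from formalin-fixed, paraffin-embedded sections. No label says that the 4 samples were separate animals, so the p-values reflect the spread among these 4 samples alone, which may be technical. The measure throughout is the gene ratio, the mean over a gene's probes of log2(processed sample signal / processed pool signal), with the autosomal median of each array set to 0. A gene or probe was called higher or lower at an adjusted p under 0.05 (limma, Benjamini-Hochberg over all autosomal genes or probes) with a mean of at least 0.25 in size. In limma the variance of each gene is drawn towards that of all genes. Each SE given here comes from that fit, so it differs from one worked out from the SD alone. DNA does not report expression, so marker genes could not show which cells were in a sample.

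In the sample channel 84.3% to 89.9% of probes lay well above background, against 94.4% to 97.7% in the pool channel. The scanner's noise measure was outside its accepted range on all 4 arrays, at 0.376 to 0.417. Replicates 1 and 2 shared slide 1, and replicates 3 and 4 shared slide 2. Over probes, the arrays correlated at 0.70 and 0.66 within a slide and at 0.61 to 0.63 across slides. Map3k7, which encodes TAK1, had a gene ratio of 0.65 ± 0.13 (SD, n = 4) and Ripk3, which encodes Rip3, one of -0.08 ± 0.06. The position of the deleted parts relative to these probes was not known, so neither value checks the labels.

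Hepatocytes turn ammonia into urea through a cycle of mitochondrial and cytosolic enzymes, and they keep blood glucose up in fasting by making glucose from lactate and amino acids and by breaking down glycogen. The same cells degrade tyrosine and, in mice, oxidise uric acid further. Most of these genes are known for strong transcription in hepatocytes, but in the genomic DNA of a normal cell every autosomal gene is present in equal copies.

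The probe sequences are shown for the genes whose probes were high or differed among themselves, with positions on mouse build mm9. All are 60 bases long except the 48-base G6pc probe and the 59-base Uox probe. For Pck1, Tat and Uox only the first 30 bases of the probe are printed. The sources used here do not say whether any of the probes shown lies in a UTR. Capitals mark GTAAG, the letters with which many introns begin on the coding strand.

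Cps1 chr1:67214909-67214968: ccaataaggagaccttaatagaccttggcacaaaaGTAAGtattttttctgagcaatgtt
Cps1 chr1:67243112-67243171: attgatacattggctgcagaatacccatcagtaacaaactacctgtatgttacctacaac
Cps1 chr1:67260642-67260701: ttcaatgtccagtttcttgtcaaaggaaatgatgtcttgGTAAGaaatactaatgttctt
Pck1 chr2:172984708-172984767: tgaaattggtatccggaccacttcttggga
G6pc chr11:101229136-101229183: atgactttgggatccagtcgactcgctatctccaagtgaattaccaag
G6pc chr11:101234052-101234111: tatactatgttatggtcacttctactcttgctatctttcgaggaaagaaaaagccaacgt
Phkb chr8:88457802-88457861: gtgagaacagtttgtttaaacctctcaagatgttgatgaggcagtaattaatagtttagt
Phkb chr8:88560080-88560139: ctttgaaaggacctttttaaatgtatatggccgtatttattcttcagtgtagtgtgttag
Phkb chr8:88575081-88575140: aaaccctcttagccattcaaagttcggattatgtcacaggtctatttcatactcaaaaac
Tat chr8:112523262-112523321: ctacaccagagagaagtcgaagacttgtaa
Uox chr3:146293674-146293732: ctttgttgttattgttgttcctagttcaac

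GTAAG, searched on both strands, occurred in 2 of the 11 member probes of 60 bases, both of Cps1, and in 12.0% of the 43502 autosomal probes of that length. The share of G and C among the 13 probes ran from 28.3% for Pck1 to 45.8% for one G6pc probe, around a median of 36.7% over all autosomal probes. Whether a probe lies in an exon or an intron was not analysed here, because no annotation of build mm9 was used.

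Of the 7 genes, 5 were called higher in the sample DNA than in the pool, namely Uox, Pck1, Tat, Cps1 and Phkb, and 0 were called lower. Over all 20445 genes 16.1% were called higher and 19.3% lower. The median gene ratio of the 7 genes was 1.14, against -0.01 over all genes. The 2 genes not called were Ass1 and G6pc. Large ratios were rare on these arrays: a mean of at least 2 was reached by 59 of 52385 autosomal probes, or 0.113%. Of these, 4 were probes of Uox, Pck1, Tat and Phkb. The 7 genes were chosen with earlier results of these data known, so these comparisons with all genes describe them and do not test them.

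**Figure D1:**
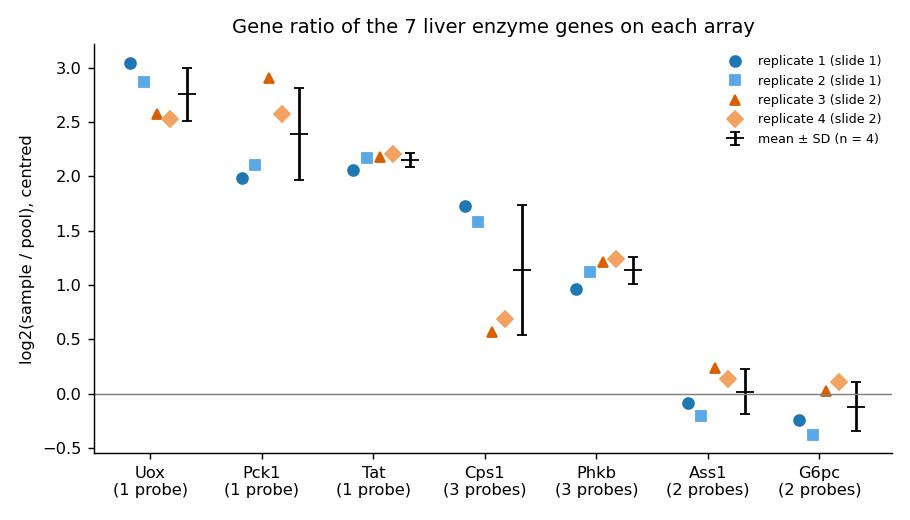
Gene ratio, log2(sample / pool) centred on the autosomal median, of the 7 genes on each of the 4 arrays (points) with the mean and SD (n = 4). Uox, Pck1 and Tat lie between 1.98 and 3.05 on every array, Cps1 is higher on the arrays of slide 1, and Ass1 and G6pc lie on both sides of 0.

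In the urea cycle, Cps1 makes carbamoyl phosphate from ammonia in the mitochondrion and is the entry enzyme of the cycle. Its gene ratios were 1.72, 1.58, 0.56 and 0.69 on replicates 1 to 4. All 4 were above 0, and the arrays of slide 1 lay above those of slide 2 with no overlap. The mean was 1.14 ± 0.60 (SD, n = 4; SE 0.21), or 2.20-fold, at an adjusted p of 0.00768.

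The 3 Cps1 probes span 45.8 kb on chromosome 1, and all were called higher. Their means were 0.90 ± 0.48 at the first position, 1.44 ± 0.65 at the second and 1.08 ± 0.67 at the third. The difference of slides was present at each of the 3 probes. At the second probe the ratios were 2.10 and 1.89 on slide 1 and 0.88 and 0.89 on slide 2. The raw mean signal of that probe was 336, 392, 439 and 437 in the sample channel. In the pool channel it was 191, 321, 513 and 340. The second probe exceeded the first on all 4 arrays, by 0.54 ± 0.19, and 38.9% of the 11768 genes with at least 2 probes had as large a range between probes.

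Ass1 joins citrulline and aspartate to argininosuccinate, the step of the cycle in the cytosol that brings in the second nitrogen. Its gene ratios were -0.09, -0.21, 0.24 and 0.14. They lay below 0 on slide 1 and above 0 on slide 2, and the mean of 0.02 ± 0.20 (SD, n = 4) was not called (adjusted p 0.871). Its probes on chromosome 2, which are 37.5 kb apart, gave 0.06 ± 0.17 and -0.02 ± 0.34. The sign of the Ass1 mean depended on single arrays, being -0.05 without replicate 3 and -0.02 without replicate 4.

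In gluconeogenesis, Pck1 converts oxaloacetate to phosphoenolpyruvate in the cytosol and is induced by fasting. The gene has 1 probe on this array, on chromosome 2. Its ratios were 1.98, 2.10, 2.90 and 2.57. All 4 arrays were high, those of slide 2 above those of slide 1. The mean was 2.39 ± 0.43 (SD, n = 4; SE 0.16), or 5.24-fold, at an adjusted p of 0.000587. Its raw signal in the sample channel was 357, 419, 417 and 425. In the pool channel it was 213, 311, 172 and 160.

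G6pc encodes the catalytic subunit of glucose-6-phosphatase, which releases free glucose at the last step shared by gluconeogenesis and glycogen breakdown. Its gene ratios were -0.24, -0.38, 0.02 and 0.11. The arrays of slide 1 lay below 0 and those of slide 2 just above it. The mean of -0.12 ± 0.23 (SD, n = 4) was not called (adjusted p 0.352). Its probes lie 4.92 kb apart on chromosome 11 and gave -0.26 ± 0.35 and 0.02 ± 0.10. The lower one, the 48-base probe, has the highest share of G and C of the 13. With the median of probes of the same G and C class subtracted on each array, an alternative chosen after seeing the data, the G6pc mean was 0.02.

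In glycogen breakdown, Phkb encodes the beta subunit of phosphorylase kinase, a regulatory subunit present in the liver and muscle enzymes alike. Its gene ratios were 0.96, 1.12, 1.21 and 1.24. All 4 were above 0 and close together, and the mean was 1.14 ± 0.13 (SD, n = 4; SE 0.07), or 2.20-fold, at an adjusted p of 0.000543. This mean came from 1 of its 3 probes. The probe at chr8:88560080-88560139 had ratios of 2.93, 2.68, 3.05 and 2.98, with a mean of 2.91 ± 0.16. The upstream probe gave 0.06, 0.50, 0.27 and 0.35, with a mean of 0.29 ± 0.18. The downstream probe gave -0.10, 0.19, 0.32 and 0.40, with a mean of 0.20 ± 0.22. Only the middle one was called, and no value of either other probe came near its lowest value.

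The middle Phkb probe exceeded the downstream one, 15.0 kb away, by 3.03, 2.48, 2.74 and 2.58, a mean of 2.71 ± 0.24. Of the 11768 autosomal genes with at least 2 probes, 20 (0.170%) had as large a difference between their highest and lowest probe. The middle probe was dim in the pool, where it lay well above background on 3 of 4 arrays. Its raw signal in the pool channel was 124, 153, 134 and 117. In the sample channel it was 231, 218, 287 and 273. The raw sample signal was thus above the raw pool signal on every array, and the size of the ratio depended on how background was removed: with normexp in place of the scanner's subtraction the mean of the probe was 1.90 and that of the gene 0.72. When only probes well above background on all arrays in both channels were kept, the middle probe dropped out and the Phkb gene ratio was 0.25 (adjusted p 0.0328), just under the size needed for a call. With the median of its 3 probes in place of the mean it was 0.32 (adjusted p 0.0281).

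In amino acid catabolism, Tat is the tyrosine aminotransferase, the first and rate-limiting enzyme of tyrosine breakdown. Its 1 probe lies on chromosome 8 and had ratios of 2.06, 2.17, 2.17 and 2.21. These were the closest 4 values of any of the 7 genes. The mean was 2.15 ± 0.07 (SD, n = 4; SE 0.06), or 4.44-fold, at an adjusted p of 3.71e-05. The raw signal of the probe was 342, 376, 394 and 368 in the sample channel. In the pool channel it was 199, 260, 223 and 166.

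In purine catabolism, Uox is urate oxidase, the peroxisomal enzyme that mice use, and humans lack, to turn uric acid into the precursor of allantoin. Its 1 probe, on chromosome 3, had the highest mean of the 7 genes, with ratios of 3.05, 2.87, 2.57 and 2.53. All 4 were far above 0, slide 1 above slide 2. The mean was 2.75 ± 0.25 (SD, n = 4; SE 0.10), or 6.74-fold, at an adjusted p of 9.66e-05. The raw signal of the Uox probe was 978, 1026, 946 and 1017 in the sample channel. In the pool channel it was 264, 425, 388 and 295. The median raw signal over all probes was 155 to 165 in the sample channel and 209 to 334 in the pool channel, so the Uox probe was far above the median of its array in the sample channel on every array.

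Ordered by mean ratio, Uox came first, followed by Pck1, Tat, Cps1, Phkb, Ass1 and G6pc. Uox exceeded Pck1 by 0.36 ± 0.66 and on 2 of 4 arrays, so these neighbours in the order did not differ beyond their spread. The same held for Pck1 over Tat, by 0.24 ± 0.39 and on 2 of 4 arrays. Tat exceeded Cps1 on all 4 arrays, by 1.01 ± 0.65. Cps1 and Phkb had the same mean to 2 decimals and each was the higher on 2 arrays. Phkb exceeded Ass1 on all 4 arrays by 1.11 ± 0.16. Ass1 exceeded G6pc on all 4 arrays too, by a small margin of 0.14 ± 0.08. Of the 13 probes, 7 were called higher and 0 lower, where 18.2% of all autosomal probes were called higher and 18.8% lower. Those called were the 3 of Cps1, the middle one of Phkb and those of Pck1, Tat and Uox. Under single alternatives, the 48-base G6pc probe was called lower with normexp, at -0.38 (adjusted p 0.00434). The upstream Phkb probe was called higher with dim probes removed, at 0.29 (adjusted p 0.0223), and without replicate 1, at 0.37 (adjusted p 0.0466).

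A larger copy number of a region raises the ratio of every probe in it, so each gene was set against the probes of other names within 100 kb on either side. There were 46 such neighbouring probes at the 7 loci, of which 9 were called higher and 14 lower. Over all autosomal probes 18.2% were called higher and 18.8% lower. No neighbouring probe at the Cps1, Pck1, Tat, Uox or Phkb locus reached the highest probe of the gene itself.

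**Figure D2:**
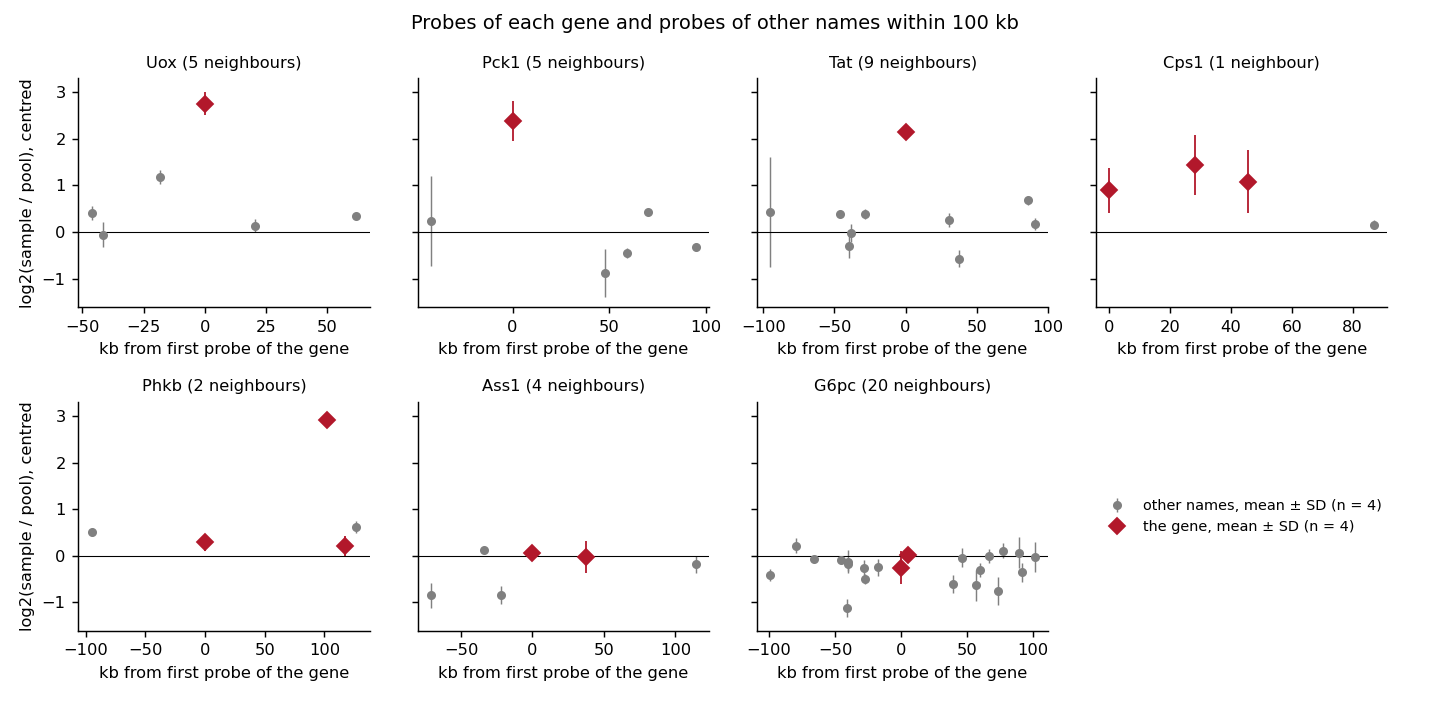
Mean log2(sample / pool) ± SD (n = 4) of each probe of the 7 genes (red diamonds) and of each probe of another name within 100 kb (grey circles), by distance in kb from the first probe of the gene. At the Uox, Pck1 and Tat loci the gene's probe stands above all neighbours, and at the Phkb locus 1 of 3 probes does.

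Around Uox, 5 neighbours ran from -0.06 to 1.18. Both of these extremes were probes of Dnase2b, which encodes an acid endonuclease, and the one at 1.18 ± 0.15 was 18.4 kb from the Uox probe. Uox minus the median of its neighbours was 2.66, 2.46, 2.30 and 2.26. The mean was 2.42 ± 0.18 (adjusted p 1.07e-05), so most of the ratio remained on each array.

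Around Pck1, 5 neighbours ran from -0.88 for a probe of Zbp1, which encodes a sensor of Z-form nucleic acid, to 0.43 for a probe of Pmepa1. That Zbp1 probe was dim in the sample, where no array read it well above background. The same held for the Ctcfl probe, whose ratios ran from -0.69 to 1.55. The other Pmepa1 probe gave -0.33 and was called lower, as was the other Zbp1 probe at -0.45. Pck1 minus its neighbourhood was 2.24, 2.51, 3.19 and 2.99, with a mean of 2.73 ± 0.43 (adjusted p 6.41e-05). With normexp this mean was 1.68.

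Around Tat, 9 neighbours ran from -0.57 for a probe of Chst4, which encodes a carbohydrate sulfotransferase, to 0.69 for a probe of Zfp612. The other probes of Chst4 and Zfp612 gave 0.26 and 0.17. The Phlpp2 probe, at 0.43 ± 1.18, was well above background on no array in either channel. A Marveld3 probe called higher, at 0.39, was well above background on no array in the sample channel. Tat minus its neighbourhood was 1.76, 2.13, 2.06 and 1.91, with a mean of 1.97 ± 0.16 (adjusted p 3.10e-05). The 4 arrays again lay close together.

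At the Ass1 locus 4 neighbours were measured, and 2 probes named ENSMUST00000113532 were low, at -0.85 and -0.83, while another of that name gave 0.12. Ass1 minus its neighbourhood was 0.34, 0.23, 0.67 and 0.57. This mean of 0.45 ± 0.20 was called higher (adjusted p 0.0129), while the gene ratio itself was near 0 and the median of the neighbours was -0.51. The call was lost without replicate 3, at 0.38 (adjusted p 0.0510), with a window of 250 kb, at 0.21 (adjusted p 0.260), and with normexp, at 0.23 (adjusted p 0.0406).

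At the G6pc locus 20 neighbours ran from -1.12 for a probe of Aoc2 to 0.21 for Cntd1, and 8 of them were called lower. The other Aoc2 probes gave -0.18 and -0.13. G6pc minus its neighbourhood was 0.10 ± 0.19 and was not called (adjusted p 0.463). Among the 5 genes that could be tested against their neighbourhood, 4 were called higher, where 15.8% of 17926 genes were.

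Cps1 and Phkb had fewer than the 3 neighbours needed and were not tested at 100 kb. The single neighbour of Cps1, ENSMUST00000140506, gave 0.16 ± 0.09. The neighbours of Phkb were Itfg1 at 0.51 ± 0.09 and ENSMUST00000053771 at 0.61 ± 0.13, both called higher, so that the outer probes of Phkb lay below them. In a window of 250 kb, Cps1 minus its neighbourhood was 1.87, 1.98, 0.75 and 0.87, a mean of 1.37 ± 0.65 (adjusted p 0.00423). In the same window Phkb gave 0.61, 0.92, 0.95 and 1.14, a mean of 0.90 ± 0.22 (adjusted p 0.00143). In that window 15.4% of 20023 genes were called higher.

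The arrays lay on 2 slides of 2, and slide and sample cannot be told apart. For each of the 7 genes the ratios of the slides did not overlap, which held for 44.6% of all genes, while 0% were called between slides. The difference, slide 2 minus slide 1, was -1.02 for Cps1, from a mean of 1.65 to one of 0.63 (unadjusted p 0.000359, adjusted p 0.372, limma). It was 0.70 for Pck1, -0.41 for Uox, 0.37 for G6pc, 0.34 for Ass1, 0.18 for Phkb and 0.08 for Tat. In the limma fit 0 of 20445 genes passed, and 2207 had an unadjusted p under 0.05. As large a difference in either direction as that of Cps1 was found in 84 genes, or 0.411%. An exact permutation test of 2 arrays against 2 cannot reach 0.05.

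The slide comparison was also made in each channel alone, as a step chosen after seeing the data, on log2 processed signals centred on the autosomal median of that channel. In the sample channel the slide difference was -0.06 for Cps1, 0.03 for Pck1 and -0.07 for Uox. Of the 7 genes, Phkb alone had slides that did not overlap there, at a difference of 0.23. Over all genes 37.3% had slides that did not overlap in that channel. By limma 0 genes were called in that channel, and 1314 had an unadjusted p under 0.05.

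In the pool channel Cps1 read -0.20 and -0.06 on slide 1 and 0.85 and 0.84 on slide 2. The difference of 0.97 had an unadjusted p of 3.08e-05 and an adjusted p of 0.0660, and 29 of 20445 genes (0.142%) had one as large. Pck1 went the other way, from -0.26 and -0.23 to -1.09 and -0.73, a difference of -0.66 (adjusted p 0.0983). The difference was -0.36 for G6pc and 0.34 for Uox, with adjusted p-values of 0.107 and 0.122. For each of the 7 genes the slides did not overlap in the pool channel, which held for 55.1% of all genes. None of the 7 genes was called in the pool channel, where 0.0293% of genes were called and 4488 had an unadjusted p under 0.05. The labels describe the pool in the same words for all 4 arrays. For Cps1, Pck1, Uox, G6pc, Ass1 and Tat the difference between slides was larger in size in the pool channel than in the sample channel. It was -0.26 against 0.08 for Ass1 and -0.12 against -0.04 for Tat. For Phkb it was smaller, at 0.05 against 0.23. Over all genes the median absolute difference was 0.111 in the pool channel and 0.107 in the sample channel. The cause of these differences was not tested.

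**Figure D3:**
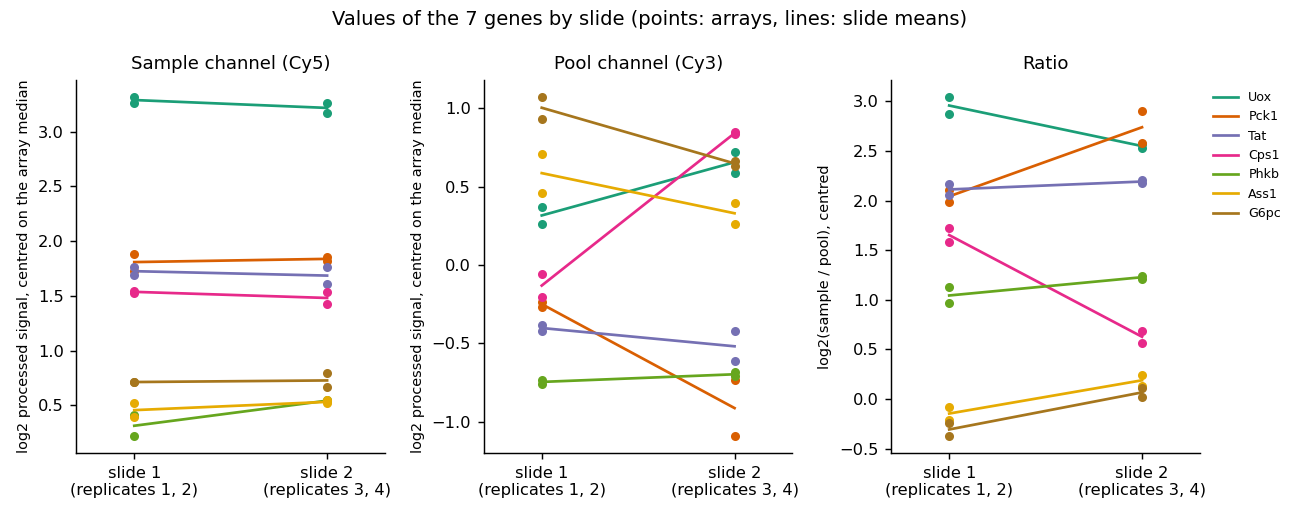
Values of the 7 genes on slides 1 and 2 in the sample channel, in the pool channel (both log2 processed signal centred on the array median) and as the ratio. Points are arrays and lines join slide means: Cps1 moves by 0.97 in the pool channel and by -0.06 in the sample channel.

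The deposited table of processed values for the same arrays gave the same 5 genes as higher, but with other values for Pck1 and Uox. In that table Pck1 read 2.04, 2.40, 0.61 and 0.66, a mean of 1.43 ± 0.93 (adjusted p 0.0105). There the arrays of slide 2 were the low ones, in contrast to the scanner ratios of 2.90 and 2.57. Uox read 1.26, 1.01, 2.72 and 0.93, a mean of 1.48 ± 0.84 (adjusted p 0.00666), and its value on replicate 3 stood apart from the other 3. Tat read 2.03, 2.24, 2.25 and 2.01 and Cps1 had a mean of 1.22 ± 0.52, both near the scanner values. The sources used here do not say how that table was normalised within arrays. Less the neighbourhood, the table gave 1.80 for Pck1 and 1.20 for Uox. With normexp on the raw signals the gene ratios were 2.30 for Uox, 1.80 for Pck1, 1.62 for Tat and 0.81 for Cps1, all called higher.

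For each of the 7 genes, the 2 other autosomal genes with the most similar values were taken by the root mean square difference over the 4 arrays. Near Tat was Epm2a, laforin, a glycogen phosphatase, at a difference of 0.22. Nearest to Pck1 was Cyp2e1, an ethanol-inducible cytochrome P450 of the liver, at 0.30. Uox had Slc27a2, a peroxisomal and microsomal very-long-chain acyl-CoA synthetase, at 0.30, and 1600014C10Rik was second for both Uox and Pck1. Cps1 had Sepp1, which encodes the plasma selenoprotein P, and ENSMUST00000135950, both at 0.24. Sepp1 read 1.95 and 1.77 on slide 1 and 0.91 and 0.80 on slide 2, the same order of slides as Cps1. It was chosen by these same values, so that shared order follows from the choice. Phkb had Apob, the apolipoprotein of very-low-density lipoprotein, at 0.08, and Epgn. The Phkb value matched here is a mean over probes at 0.29, 2.91 and 0.20, a level that none of them had. Ass1 had Xrcc5 and AK046286 and G6pc had Plin2 and Ttc33, at differences of 0.02 to 0.04.

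The other genes of the same pathways were read from lists made without the 7 genes, beside the 16.1% of all genes called higher and the 19.3% called lower. These lists too were chosen with earlier results of these data known. The urea cycle list had 7 autosomal genes and also held enzymes of glutamate and glutamine metabolism, such as Glud1 (glutamate dehydrogenase). Glud1 was called higher at 0.34 ± 0.12, and Asl (argininosuccinate lyase), an enzyme of the cycle itself, lower at -0.53 ± 0.14. The list's median was 0.08. Otc, the ornithine carbamoyltransferase that acts after Cps1, lies on the X chromosome and was not tested. It read 1.04, 0.74, 0.81 and 1.34, a mean of 0.98 ± 0.27, where the median of X probes was -0.86. The other X-linked genes of the lists, Phka2, Phka1 and Hprt, read -0.93, -0.84 and -0.83. The 3 Otc probes differed, at 1.13, 2.22 and -0.41, and none was well above background in both channels on all arrays.

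Of 14 gluconeogenic and glucose-handling genes 3 were called higher and 0 lower, around a median of 0.002. Among them were Slc2a2, the glucose transporter GLUT2, at 0.99 ± 0.12 and Fbp1 (fructose-1,6-bisphosphatase) at 0.41 ± 0.13. The probes within Slc2a2 read 0.36 and 1.63. With normexp 7 of the 14 genes were called in either direction, beside 6029 of all 20445 genes.

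Of 10 glycogen genes 4 were called higher and 1 lower, with a median of 0.06. The largest ratios were those of Pgm2 at 0.59 ± 0.16 and Ppp1r3b, a glycogen-targeting subunit of protein phosphatase 1, at 0.49 ± 0.18. In both genes the probes disagreed. Those of Pgm2 read 0.95, -0.02 and 0.83. The one at 0.95 was well above background on only 1 array in the pool channel and 2 in the sample channel. For Ppp1r3b the ratio came mostly from 1 of 3 probes, since the others read 0.25 and -0.09. Of 25 genes of amino acid catabolism 9 were called higher, or 36%, and 0 lower, around a median of 0.17. Among them were Mat1a, which makes S-adenosylmethionine in the adult liver, at 0.91 ± 0.27, and Kmo, kynurenine 3-monooxygenase, at 0.73 ± 0.21. Of 7 genes of the purine catabolism list 0 were called higher and 2 lower, Pnp at -0.43 ± 0.11 and Allc at -0.40 ± 0.20. That list also held Gnpda1, an enzyme of amino sugar metabolism, which was not called, at -0.05.

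**Figure D4:**
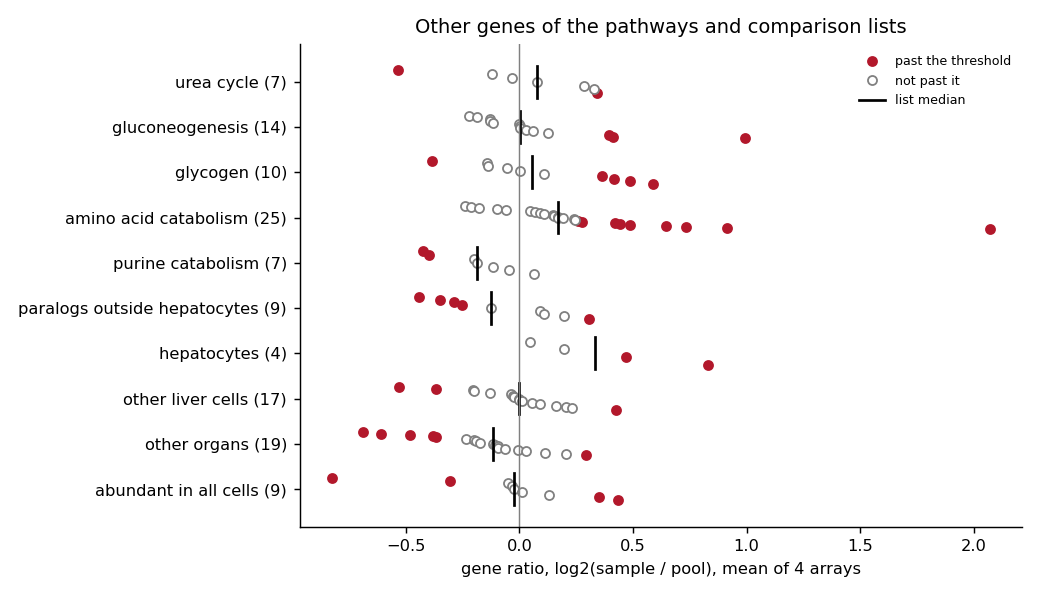
Mean gene ratio over 4 arrays of the tested genes in each list (number in brackets), without the 7 genes. Filled points passed the threshold for a call and bars mark list medians: 9 of 25 genes of the amino acid catabolism list passed it on the high side, and the list of genes expressed in other organs lies mostly below 0.

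Lists of genes not typical of hepatocytes, and a list of hepatocyte markers, were read the same way, against 16.1% called higher and 19.3% called lower over all genes. Of 9 relatives of these enzymes used outside hepatocytes 1 was called higher, Fbp2 at 0.31 ± 0.10, and 4 lower, among them Pygm, the muscle glycogen phosphorylase, at -0.44 ± 0.16 and Pkm2 at -0.35 ± 0.15. Of 17 genes of other liver cells 1 was called higher, Sox9 at 0.42 ± 0.28, and 2 lower, Col1a1 at -0.53 ± 0.10 and Krt7 at -0.37 ± 0.11. Of 19 genes of other organs 1 was called higher and 5 lower, the lowest being Lct at -0.69 ± 0.25, Vil1 at -0.61 ± 0.11 and Ins1 at -0.48 ± 0.21. Of 9 genes abundant in all cells 2 were called higher, Eef1a1 at 0.43 ± 0.13 and Rplp0 at 0.35 ± 0.04, and 2 lower, the lower of them Fth1 at -0.82 ± 0.43. Of 4 hepatocyte marker genes 2 were called higher, Alb (albumin) at 0.83 ± 0.25 and Apoa1 at 0.47 ± 0.12. The Apoa1 probes ran from -0.73 to 2.17.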

How the data were processed

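Per the file headers, Agilent Feature Extraction 10.10.1.1 gave the deposited intensity of each spot, and probes are placed on build mm9. It subtracted background, detrended and linearly normalised the dyes to make the processed intensity, with surrogates for dim spots, per the file headers. The deposited log10 ratio, Cy5 over Cy3, served only as a check. The authors' deposited log2 table was an alternative. Its scale and direction were read from its correlation of 0.91 to 0.92 with the scanner ratios of the same arrays (column medians -0.035, 0.029, 0.052 and 0.005), and how it was normalised within arrays the sources used here do not say.

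From the scanner files, control and outlier spots were removed (62976 spots, 3924 controls), log2 ratios were centred per array on the autosomal median, and probes were averaged per gene, with no loess. Gene names come from the array's design. limma 3.58.1 in R 4.3.3 (lmFit, eBayes, Benjamini-Hochberg over all 20445 genes) tested means against 0, and scripts were tested on simulated data. The number of arrays, 4, limits the precision. The members and lists were chosen with earlier results of these data known. Genes named were the 7 with every probe, at each locus the named neighbours with the highest and lowest ratio, up to 3 called genes of each list by size, and 2 most similar genes for each member. The low probes beside Ass1 and the X-linked and knocked-out genes were named outside that rule, after their values were seen. So were Gnpda1 and the dim probes of Ctcfl, Phlpp2 and Marveld3 beside Pck1 and Tat. Some genes that the rule names are not reported here.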

Additional observations from a re-analysis of the deposited data

How the results depend on the processing

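Uox, Pck1, Tat and Cps1 were called higher under every alternative run: centring on the mode, normexp, dim probes removed, outlier spots kept, classes of G and C content, the deposited table, each array left out, slide as a random block, slide means as 2 samples, and the median of a gene's probes. The exceptions among the 7 genes were these, and their cause was not tested except where named. Phkb was not called, at 0.25, with dim probes removed, since its high probe then drops out, and with the median of its probes it was 0.32. Ass1 was -0.051 with normexp, -0.0025 in the deposited table and -0.053 to 0.097 with arrays left out, and G6pc was 0.016 with G and C classes. Less the neighbourhood, Ass1 was not called with normexp (0.23), with a window of 250 kb (0.21) or without replicate 3 (0.38), and was called without each other array (0.38 to 0.53 over all 4). With a window of 50 kb only 2 of the 7 genes were called, since Ass1 and Pck1 then had too few neighbours to be tested. Without 1 array, 3560 to 4289 genes were called against the neighbourhood, the lowest counts being 3608 without replicate 1 and 3560 without replicate 2, against 5711. Between slides 4 genes were called with normexp and 3 with dim probes removed. In the deposited table the slide differences of Pck1 (-1.59), Tat (-0.0090) and Uox (0.69) took the other sign. List counts in either direction moved to 3 of the other-organ genes with dim probes removed, and with normexp to 7 gluconeogenic, 1 purine and 2 abundant genes. Over all genes tested under each setting, 7486 were called with dim probes removed and 6029 with normexp, against 7236 in the main run. Among single probes, the second G6pc probe took the other sign with the mode (-0.0010), normexp (-0.075), the table (-0.0495) and arrays left out (-0.017 to 0.055), the first Ass1 probe with normexp (-0.042), the first G6pc probe with G and C classes (0.023), and the second Ass1 probe with arrays left out (-0.17 to 0.083). Calls were gained by the first G6pc probe with normexp (-0.38) and by the upstream Phkb probe with dim probes removed (0.29) and without replicate 1 (0.37). The G and C classes were chosen after seeing the data. No paired analysis was possible because the study has 1 group.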
